A study of Mus musculus and Homo sapiens with 32 samples.

Results

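The solute carrier (Slc) genes were taken from the mouse genes whose symbol begins with Slc and a family number. The 3 deposited tables of the genotype comparison name 200 such genes among 11200 genes. The region table of that comparison lists 193 of them among 10268 genes, in 686 of its 33473 regions. A gene is represented below by the region with the most reads, and 159 members (of 8725 genes) had at least 50 reads there. Another 34 members had fewer reads and 7 had a peak only. Of the 200 symbols, 4 (Slc13a2os, Slc2a4rg-ps, Slc7a6os and Slc4a1ap) are named after a carrier and do not encode one.

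Solute carriers are membrane proteins that move sugars, amino acids, ions, metals, nucleotides and vitamins across the plasma membrane and the membranes of organelles, by facilitated diffusion or by coupling to ion gradients. Dividing stem cells depend on glucose carriers, on the amino acid exchangers that supply growth signalling, and on mitochondrial carriers that pass nucleotides, phosphate and citrate through the inner membrane. N6-methyladenosine (m6A) is a methylation of adenosine in RNA. It is laid down on many messenger RNAs by a writer complex with Mettl3 as its catalytic subunit, often in long exons and near stop codons. The mark is known for shortening the life of many transcripts.

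In m6A-CT, nuclei bound by an anti-m6A antibody are treated with a transposase that inserts sequencing adaptors beside the antibody, and input libraries were made with no antibody. The genotype comparison used mouse embryonic stem cells labelled C57BL/6 wild-type and C57BL/6 Mettl3-/- (KO), with the MilliporeSigma antibody. Peak lists came from E14 mouse embryonic stem cells (100K, 25K and 5K nuclei, where K stands for 1000), from expanded potential stem cells (EPSC, with E14 as their labelled line) and from embryonic fibroblasts (MEF, labelled CF1) at 100K nuclei, with the Synaptic Systems antibody. The labels give 2 m6A-CT and 2 input libraries for each of these groups, and do not say whether they were separate cultures or whether the KO is 1 clone.

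The region table holds 1 deposited value per genotype and library kind, as RPM, which scales reads to the total of the library. There was therefore no replicate check of any difference below, and intervals and standard errors cover counting error only, with PCR copies counted as reads. Totals were 39310394 reads (wild-type m6A-CT), 45090626 (wild-type input), 37532658 (KO m6A-CT) and 51031598 (KO input). Reads outside the regions of Lars2 and of Rn45s, a ribosomal RNA precursor, which together took most input reads, made up 63.5, 23.6, 45.5 and 19.0% of these. The single listed Mettl3 region (mm9 chr14:52919391-52919765) had 1.71 RPM of input in wild-type and 2.47 RPM in the KO. The removed part of Mettl3 is not given, so this region does not check the label. Of 14 stem cell markers named in the files, 11 had a peak in E14 at 100K nuclei, 9 in EPSC and 4 in MEF, and of 10 fibroblast markers 1, 1 and 8 had one. In each of the 5 lists made with the Synaptic Systems antibody, at most 1 gene had a peak in each set of endothelial (4), blood (1) and epithelial (3) markers. In the peak lists of the genotype comparison, 13 stem cell and 2 fibroblast markers had a peak in wild-type, and 11 and 2 in the KO. For endothelial, blood and epithelial markers the counts were 2, 0 and 2 in wild-type and 1, 1 and 0 in the KO.

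Most Slc RNAs carried more m6A-CT than input signal in wild-type cells, and most had less of it in the KO. The ratio of m6A-CT RPM to input RPM was at least 2 in 134 of 159 members in wild-type (84.3%, against 74.3% of all genes) and in 87 in the KO (54.7%, against 53.7%). Of the 159, 83 reached 2 in both genotypes (52.2%, against 47.3% of all genes), 51 in wild-type alone (32.1%, against 27.0%) and 4 in the KO alone (2.52%, against 6.37%). The median ratio was 4.05 in wild-type and 2.18 in the KO, against 3.52 and 2.12 over all genes. These counts depend on the total that defines RPM. With the reads of Lars2 and Rn45s left out of the totals, 48 members reached a ratio of 2 in wild-type and 11 in the KO. This lowers the ratios of all genes in a genotype by the same factor, so the drop is not particular to members. Counts over all genes on that scale are not given here.

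In the authors' deposited table, 152 of the 159 members were lower in the KO at a false discovery rate (FDR) under 0.05 and 7 were higher, where 89.8% of all genes were lower and 10.1% higher. A Wald test on the reads of the 4 columns, which compares these libraries and not the genotypes, called 99 members lower (57.9% of all genes were) and 7 higher (10.8%). That table lists almost nothing else, since 99.8% of its 33473 regions pass this threshold, so a call by itself separates few genes. The median log2 change of the ratio on the RPM scale was -0.87 for members and -0.77 for all genes. It was -0.70 and -0.60 without Lars2 and Rn45s, and -1.37 and -1.25 as the log2 fold change of the authors' deposited table, whose model has an offset of its own. On the RPM scale 149 members were lower and 10 higher, against 7525 and 1200 of all 8725 genes. A region with few reads had to change much to pass the threshold, and low reads go with large changes: the median change was -1.88 in 32 members with 50 to 200 reads, -0.75 in 59 with 200 to 1000, and -0.80 in 68 with at least 1000.

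**Figure D1:**
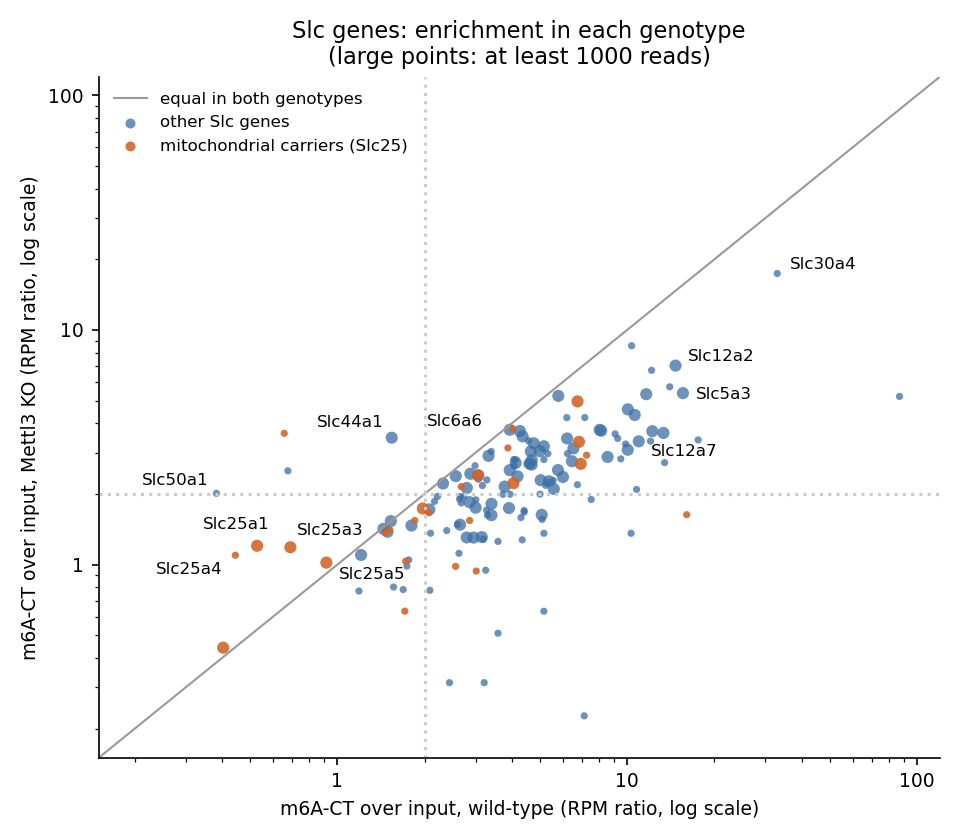
m6A-CT over input in wild-type (x axis) and KO (y axis), RPM ratios on log axes, 1 point for each Slc gene with at least 50 reads and reads in all 4 columns; dotted lines mark a ratio of 2 and the solid line equal ratios. Most points lie below the solid line, and mitochondrial carriers (orange) make up 6 of the 8 genes with a wild-type ratio below 1.

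Among sugar carriers, 7 of 8 members fell in the authors' deposited table and 1 rose, where 89.8% of all genes fell and 10.1% rose. Slc2a3, a high-affinity glucose carrier, had more reads than any other member, with 341 RPM of m6A-CT over 71.6 of input in wild-type and 92.1 over 28.0 in the KO. Both columns were lower in the KO, so the ratio moved from 4.76 (95% interval 4.58 to 4.95) only to 3.29 (3.09 to 3.50), a log2 change of -0.53 (counting SE 0.05) on the RPM scale; the authors' deposited table gives -1.06 (FDR 1.9e-84). Slc2a1, the widely expressed basal glucose carrier, had 95 RPM over 16.5 in wild-type and 19.8 over 7.84 in the KO. Its ratio fell further than that of Slc2a3, from 5.77 to 2.53, with -1.68 in the authors' deposited table (FDR 1.09e-53). For both genes this is the last region, with RPM-scale changes of -1.19 for Slc2a1 and -0.53 for Slc2a3. With all regions summed the changes were closer, at -0.72 and -0.45. Slc5a3, which imports myo-inositol with sodium, had little input and a high ratio, with 43.6 RPM over 2.79 in wild-type and 7.38 over 1.37 in the KO. Its ratio went from 15.6 (13 to 18.8) to 5.38 (4.13 to 7.10), and it lies within the Mrps6 locus, so reads of the pair cannot be told apart. The member that rose, Slc50a1, a sugar carrier of the SWEET type, rests on 106 reads, at ratios of 0.38 and 2.01.

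Amino acid carriers fell in 23 of 23 members in the authors' deposited table, where 89.8% of all genes fell. Their median RPM-scale change was -0.91, at median ratios of 4.07 and 2.27. Slc7a5, the light chain of the large neutral amino acid exchanger, had 246 RPM over 65.1 in wild-type and 71.5 over 33.2 in the KO. Its ratio went from 3.78 (3.62 to 3.94) to 2.15 (2.02 to 2.29), and the authors' deposited table gives -1.29 (FDR 3.51e-122). Slc3a2, the heavy chain that pairs with Slc7a5 at the membrane, had 32.5 RPM over 21.8 in wild-type and 23.9 over 17.4 in the KO. Thus on the RPM scale the light chain was enriched in both genotypes while the heavy chain stayed under 2 in both, at 1.49 and 1.38. All these ratios are lower without Lars2 and Rn45s. The change of the heavy chain was -0.11 on the RPM scale, 0.057 without Lars2 and Rn45s and -0.64 (FDR 1.48e-10) in the authors' deposited table.

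Slc7a1, the cationic amino acid carrier for arginine and lysine, had 216 RPM over 40.1 in wild-type and 38.3 over 16.9 in the KO, ratios of 5.37 (5.11 to 5.66) and 2.27 (2.08 to 2.47). Its fold change in the authors' deposited table was -1.76 (FDR 6.03e-127), the largest of the 4 amino acid carriers with the most reads. This is its last region, where the RPM-scale change was -1.25. Its other regions with at least 50 reads ran from -0.45 to -1.17 on that scale. Slc6a6, the taurine carrier, behaved otherwise: it had 150 RPM over 38.0 in wild-type and 42.7 over 11.4 in the KO. m6A-CT and input were both lower, so the ratio was 3.94 (3.73 to 4.16) and 3.76 (3.41 to 4.14), with overlapping counting intervals. The change was -0.07 (counting SE 0.08) by RPM and 0.10 with Lars2 and Rn45s left out, whereas the authors' deposited table calls it lower (-0.57, FDR 4.19e-11).

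Slc38a2, a sodium-coupled carrier of small neutral amino acids, had 111 RPM over 9.54 in wild-type and 41.4 over 7.78 in the KO. Input was nearly level on the RPM scale, and the ratio went from 11.6 (10.5 to 12.9) to 5.33 (4.77 to 5.96). Slc1a4 and Slc38a10 had similar wild-type ratios of 12.2 and 10.1 and went to 3.70 and 3.09. For Slc38a10 this is its last region alone, and its RPM-scale change of -1.70 became -0.93 with all its regions summed. Slc1a5, the glutamine carrier, moved from 3.40 to 1.82 with input of 18.3 and 19.4 RPM. Slc7a3, another cationic amino acid carrier, moved less, from 2.16 to 1.86. All 5 of these were called lower in the authors' deposited table.

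**Figure D2:**
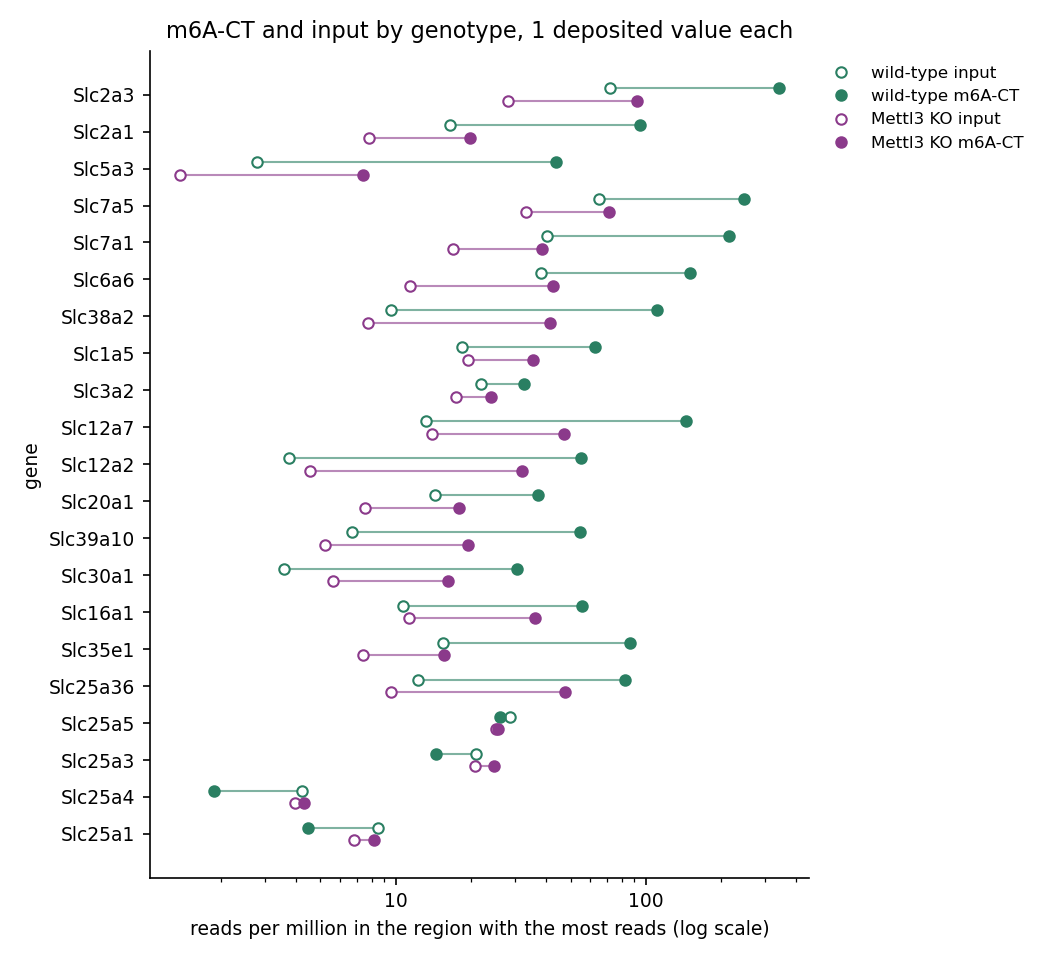
Deposited RPM (log axis) of m6A-CT (filled) and input (open) for 21 Slc genes in wild-type (green) and KO (purple), from the region with the most reads; each point is 1 value and there are no error bars. For Slc2a3, Slc7a1 and Slc6a6 both purple points are shifted left, while for Slc12a7, Slc38a2 and Slc16a1 mainly the filled point is; for Slc25a3, Slc25a4 and Slc25a1 the green m6A-CT point lies left of its input.

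Carriers of inorganic ions and ascorbate fell in 23 of 24 members in the authors' deposited table (89.8% of all genes did). Slc12a7, a potassium-chloride cotransporter, had 145 RPM over 13.2 in wild-type and 47.0 over 14.0 in the KO. With input level on the RPM scale, its ratio went from 11 (10.1 to 12) to 3.35 (3.07 to 3.66), and the authors' deposited table gives -2.20 (FDR 1.13e-131). This is its last region, where the RPM-scale change was -1.71, and with all its regions summed the change was -0.99. Slc12a2, the sodium-potassium-chloride cotransporter, had 55.1 RPM over 3.75 in wild-type and 32.1 over 4.55 in the KO. It kept one of the highest ratios after loss of Mettl3, 7.05 (6.12 to 8.15) against 14.7 (12.6 to 17.3). Slc20a1, a sodium-phosphate cotransporter, had 36.9 RPM over 14.4 and 17.9 over 7.53, so that its ratio was 2.56 and 2.38 and its sign on the RPM scale (-0.10) turned to 0.063 without Lars2 and Rn45s. The vitamin C carrier Slc23a2 likewise moved little, from 4.27 to 3.71. The 1 member that rose was Slc4a5, a bicarbonate carrier with 182 reads, at 0.67 and 2.51.

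Metal carriers fell in 21 of 21 members in the authors' deposited table (89.8% of all genes did), and 19 of 21 were enriched in wild-type (74.3% of all genes were). Slc39a10, a zinc importer, had 54.3 RPM over 6.68 in wild-type and 19.4 over 5.21 in the KO, ratios of 8.14 (7.21 to 9.21) and 3.72 (3.23 to 4.30). Slc30a1, which exports zinc from the cell, had 30.6 RPM over 3.57 and 16.2 over 5.62, ratios of 8.56 and 2.88. The change was -1.13 for Slc39a10 and -1.57 for Slc30a1 on the RPM scale. On that scale input was lower in the KO for the first and higher for the second. Leaving out Lars2 and Rn45s adds 0.31 to each log2 input difference. Slc30a4, a zinc carrier of vesicles, had the highest ratios that rest on more than 1 input read among members with at least 50 reads, with 14.6 RPM over 0.44 in wild-type and 7.17 over 0.41 in the KO. These are ratios of 33.0 (21.2 to 54.4) and 17.4 (11.2 to 28.6), whose wide intervals come from 20 and 21 input reads. Slc39a1, by contrast, had ratios of 1.44 and 1.42, with a change of -0.02 on the RPM scale, 0.15 without Lars2 and Rn45s, and -0.55 (FDR 8.38e-06) in the authors' deposited table.

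Of the monocarboxylate and citrate carriers, 8 of 8 fell in the authors' deposited table. Slc16a1, which carries lactate and pyruvate, had 55.4 RPM over 10.7 in wild-type and 36.2 over 11.3 in the KO, ratios of 5.16 and 3.19. Slc16a3, the lactate exporter of glycolytic cells, had 12.4 RPM over 3.95 and 8.34 over 6.37, ratios of 3.15 and 1.31. The Slc35 family was classed whole, by its number, as nucleotide sugar carriers, which feed glycosylation in the Golgi and endoplasmic reticulum, though it includes orphans. All 18 of its members with at least 50 reads were enriched in wild-type (74.3% of all genes were). All 18 fell in the authors' deposited table (89.8% of all genes did), with a median change of -1.12 on the RPM scale. Slc35e1, an orphan of this family, had 86.5 RPM over 15.5 in wild-type and 15.6 over 7.41 in the KO, and its ratio went from 5.59 to 2.10. Slc35a4, whose gene overlaps Apbb3, moved from 2.65 to 1.48.

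Mitochondrial carriers (the Slc25 family) had the lowest median wild-type ratio of the 10 classes, 2.32, and 14 of 26 were enriched (53.8%, against 74.3% of all genes). They supplied 6 of the 8 members with a wild-type ratio below 1 and 4 of the 7 that rose in the authors' deposited table. Of the 26, 15.4% rose, against 10.1% of all genes. Slc25a3, the phosphate carrier, had 14.5 RPM over 21.0 in wild-type and 24.6 over 20.8 in the KO. On the RPM scale input was level and m6A-CT was higher, so the ratio went from 0.69 (0.62 to 0.76) to 1.19 (1.08 to 1.30). The authors' deposited table gives 0.37 (FDR 0.00218). Slc25a1, the citrate carrier, had 4.48 RPM over 8.47 and 8.15 over 6.78, ratios of 0.53 (0.44 to 0.63) and 1.20 (1.03 to 1.41). Slc25a4, an ADP/ATP carrier, had 1.88 RPM over 4.24 and 4.32 over 3.94, ratios of 0.44 (0.34 to 0.58) and 1.10 (0.89 to 1.36).

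In these 3 genes the ratio on the RPM scale rose from below 1 to about 1, and none of them was enriched in either genotype. The level of 1 depends on the total, and every ratio is lower without Lars2 and Rn45s. The other ADP/ATP carrier, Slc25a5, had 26.1 RPM over 28.5 in wild-type and 25.7 over 25.2 in the KO. Its ratio stayed near 1 (0.92 and 1.02), and its direction depends on the scale, with 0.15 on the RPM scale and -0.33 (FDR 0.0011) in the authors' deposited table. For Slc25a39, a glutathione carrier, whose ratios were below 1 in both genotypes (0.40 and 0.44), the direction also depends on the scale, with 0.13 on the RPM scale and -0.35 (FDR 0.0176) in the authors' deposited table. Enriched members existed in the family too: Slc25a36, a pyrimidine nucleotide carrier, had 82.7 RPM over 12.3 and 47.5 over 9.58, ratios of 6.74 and 4.96, and Slc25a28, an iron carrier, went from 7.25 to 2.93.

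Among all genes as among members, those with the lowest wild-type ratio are the ones that rose. Of 8 members with a wild-type ratio below 1, 6 were called higher in the authors' deposited table, with 1 more between 1 and 2 and none above 2. Over all genes, 510 of 747 genes below 1 were called higher, 258 of 1493 between 1 and 2, and 101 of 2665 between 2 and 4. The wild-type columns enter both the ratio and the change, so this relation is partly built in.

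Among the remaining classes, carriers of vitamins, lipids, heme and choline fell in 14 of 15 members in the authors' deposited table. Organic ion and nucleoside carriers fell in 9 of 9, and vesicular and peptide carriers in 4 of 4, where 89.8% of all genes fell. The exception in the first of these classes was Slc44a1, a choline carrier, with 11 RPM over 7.12 in wild-type and 12.3 over 3.53 in the KO. Its m6A-CT was level while input was lower, so its ratio went from 1.54 (1.33 to 1.79) to 3.47 (2.92 to 4.15); the authors' deposited table gives 0.83 (FDR 8.48e-06) and lists all 6 of its regions as higher. Slc44a2, a choline carrier of the same family, moved the other way, from 6.53 to 3.13. Slc29a1, a nucleoside carrier, had ratios of 1.53 in both genotypes, with 0.0029 on the RPM scale and -0.46 (FDR 0.0224) in the authors' deposited table. The seventh gene that rose was Slc25a42, a coenzyme A carrier with 77 reads.

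**Figure D3:**
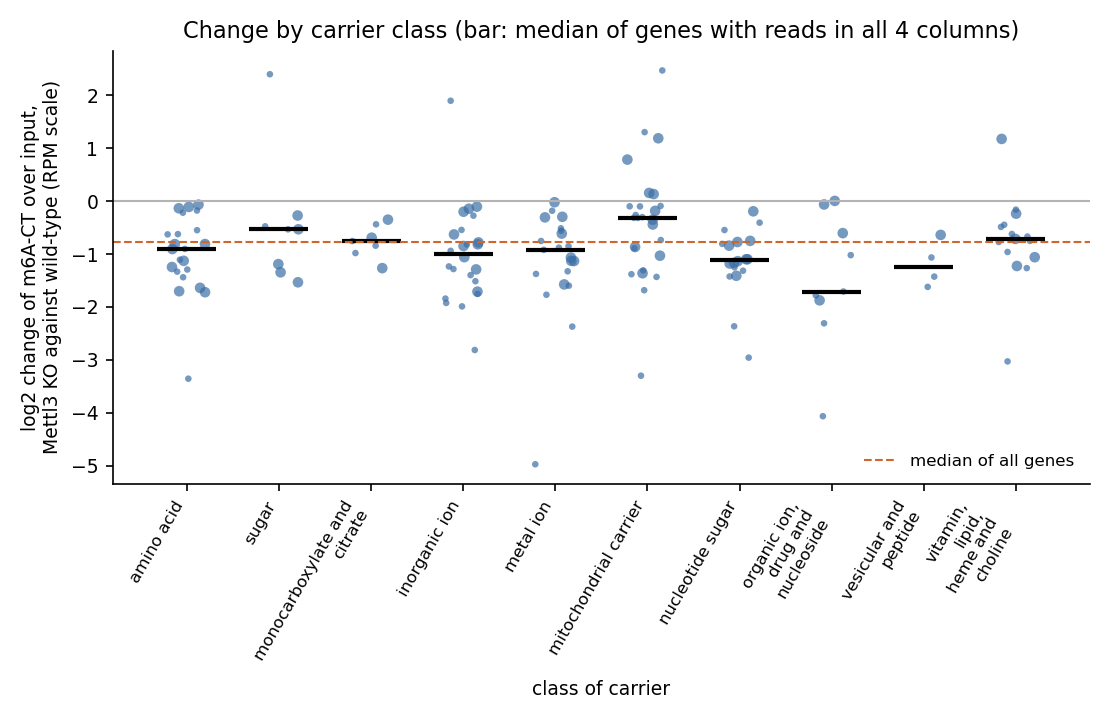
Log2 change of m6A-CT over input in the KO against wild-type on the RPM scale (y axis) for Slc genes with at least 50 reads and reads in all 4 columns, by class of carrier (x axis); large points have at least 1000 reads, black bars are class medians and the dashed line is the median of all genes (-0.77). Mitochondrial carriers spread to both sides of 0 around a median of -0.32, and the most negative points are small ones.

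The most extreme values belong to genes with few reads. Slc22a8, an organic anion carrier, had 76 reads of m6A-CT over 1 of input in wild-type, a ratio of 87.2 with an interval of 15.2 to 3488. Slc11a1, a metal carrier of phagocytes, had the lowest change (-4.97 on the RPM scale) on 50 reads. In 3 members a column was at 0. Slc36a4 and Slc13a2os had no wild-type input read, so their wild-type ratios are given only as limits, 12.2 and 9.56 against a floor of 3 reads per library column and 9.39 and 7.21 as the lower ends of the 95% counting intervals, and both count as enriched. Slc13a5, a citrate carrier, had 86 m6A-CT reads over 10 of input in wild-type and 0 over 3 in the KO, where the interval of the ratio reaches 3.29.

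Of 133 members with 2 or more regions, 122 had only lower regions in the authors' deposited table (91.7%, against 78.9% of all such genes), 5 only higher ones (3.76%, against 6.38%) and 6 both (4.51%, against 14.7%). Across the 686 regions, 95.5% were lower in that authors' deposited table, against 88.8% of all 33473. Signal was not even along the genes. A description added after seeing the data compared the most upstream with the most downstream region, in the direction of the gene, in the 45 members with at least 5 regions of at least 50 reads. The wild-type ratio was higher downstream in 41 of 45 (89.1% of all such genes) and the KO ratio in 40 of 45 (85.6%). Median ratios went from 3.05 upstream to 5.37 downstream in wild-type and from 1.45 to 2.93 in the KO. The change was more negative downstream in 22 of 45, against 59.7% of all such genes. Downstream regions were longer (median 1894 exonic bp against 294), and in 30 of the 45 the last region was the one with the most reads.

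Slc12a7 shows this slope over 24 regions. Its first 7 regions had wild-type ratios of 3.44 to 5.42 and KO ratios of 2.30 to 3.77. Its last 7 regions had wild-type ratios of 8.09 to 12.3 and KO ratios of 2.77 to 4.66. The higher wild-type ratios thus lay in the 3′ part of the gene, while the KO ratio ran from 2.30 to 4.66 over all 24 regions. Slc7a1 went from 1.55 in its first region to 5.37 in its last in wild-type and from 0.85 to 2.27 in the KO. Slc12a2 was highest in the middle, at 20.0 in its eighth of 13 regions, and Slc39a10 stayed between 6.45 and 11.2 over 9 regions. Among exceptions, Slc29a1 had a ratio of 0.49 in wild-type and 3.11 in the KO in its first region, against 1.5 and 1.09 in its last.

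**Figure D4:**
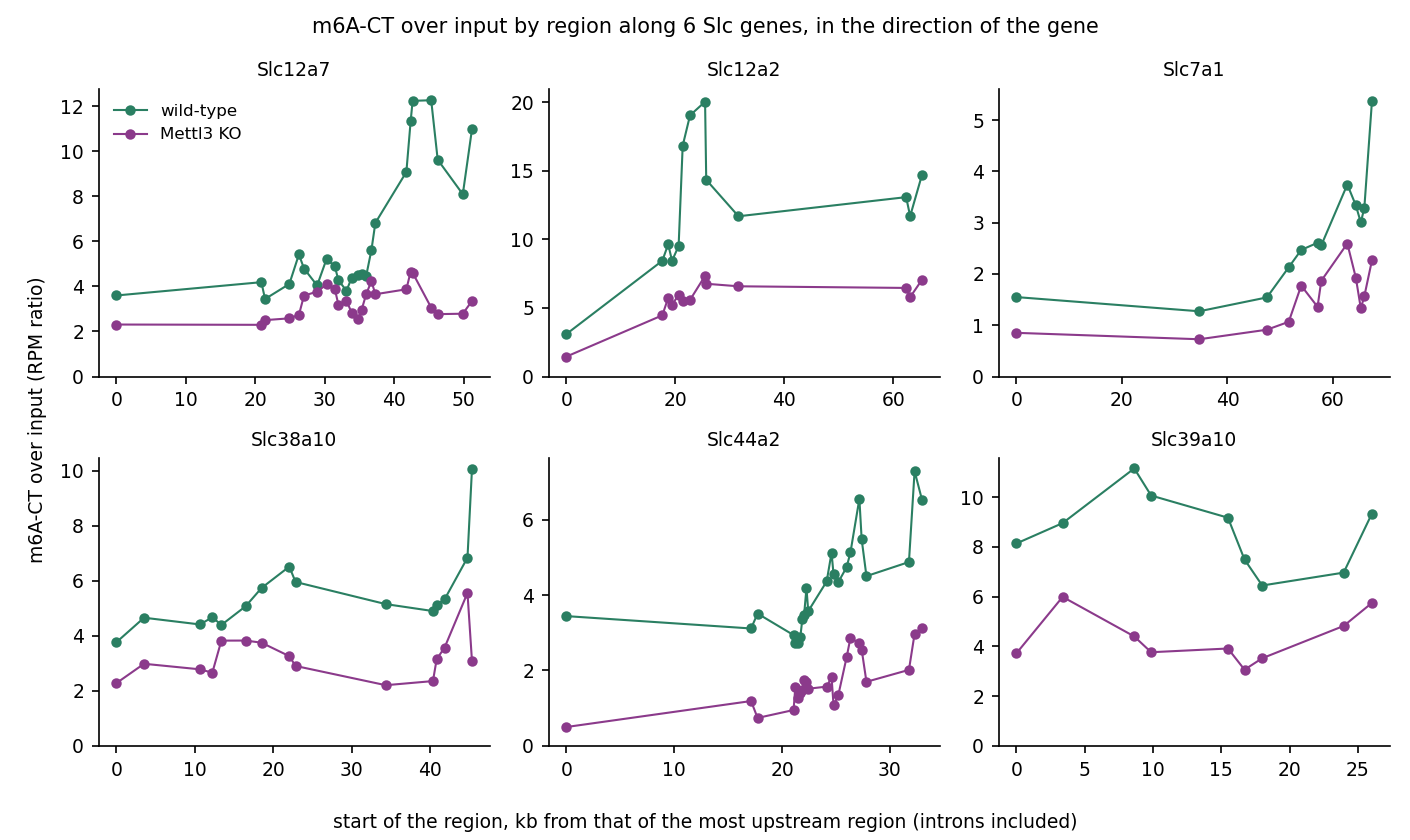
Ratio of m6A-CT to input RPM (y axis, from 0) in wild-type (green) and KO (purple) for each listed region with at least 50 reads in 6 Slc genes, placed by distance from the most upstream region in kb, introns included (x axis); lines only join the points. Wild-type ratios of Slc12a7 climb from 3.60 in the first region to 12.3 near the end while those of the KO reach 4.66 at most; Slc39a10 has no such climb.

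Input alone measures nuclear RNA. In bulk samples fewer cells of a type and less RNA per cell cannot be told apart. Input was at least 2-fold lower in the KO in 18 of 154 members with at least 20 input reads (11.7%, against 10.1% of all genes) and at least 2-fold higher in 11 (7.14%, against 9.41%). Without Lars2 and Rn45s, which adds 0.31 to every log2 difference, 8 were lower and 25 higher. Counts over all genes on that scale are not given here. The median log2 difference was -0.17, against -0.07 over all genes. Of 8 sugar carriers, 4 were at least 2-fold lower (Slc2a3, Slc2a1, Slc45a3 and Slc5a3), with a class median of -0.80. Without Lars2 and Rn45s, Slc2a3 alone stayed 2-fold lower (-1.04), and Slc2a1, Slc45a3 and Slc5a3 were at -0.76, -0.74 and -0.71.

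Among members with over 1000 input reads, the differences furthest below 0 were those of Slc6a6 (38.0 to 11.4 RPM, log2 -1.74, interval -1.88 to -1.61), Slc2a3 (71.6 to 28.0 RPM, -1.36, -1.45 to -1.27) and Slc7a1 (40.1 to 16.9 RPM, -1.25, -1.37 to -1.13). Without Lars2 and Rn45s they were -1.43, -1.04 and -0.93. Slc7a5 was just short of 2-fold lower, at -0.97. These 4 had the most reads of all members, and 3 of them carry amino acids. In the other direction Slc17a9, the vesicular nucleotide carrier, had 3.15 and 7.31 RPM (1.21, interval 0.93 to 1.5). Slc43a3, a purine nucleobase carrier placed with the amino acid class by its family number, went from 0.44 to 2.12 RPM (2.25, 1.56 to 3.02), and Slc30a10, a manganese exporter, from 0.29 to 1.37 RPM (2.25, 1.38 to 3.23). Beyond Slc17a9, the members that were at least 2-fold higher had at most 20 wild-type input reads.

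The MeTPeak lists, made from the same 2 genotypes, gave a peak to 104 of 200 members in wild-type (52.0%, against 52.1% of all genes) and to 72 in the KO (36.0%, against 41.4%). Both genotypes gave a peak to 65 members (32.5%, against 35.3% of all genes), only wild-type to 39 (19.5%, against 16.8%) and only the KO to 7 (3.50%, against 6.09%), and 89 had none (44.5%, against 41.8%). The fold of each peak is the authors' own value and is not on the scale of the RPM ratio. In 60 of the 65 the highest fold of the gene was lower in the KO (92.3%, against 76.7% of all genes), at medians of 9 and 5.00. The 5 with a higher fold were Slc44a1 (4.75 and 8.50), Slc38a4 (4.72 and 5.67), Slc27a1, Slc35g1 and Slc3a2.

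The highest wild-type folds were those of Slc12a7, Slc38a2, Slc39a10 and Slc1a4, which went from 38.1 to 10.3, from 35.4 to 13, from 32.5 to 9.50 and from 30 to 8. Slc44a2 went from 21.0 to 2.92, and Slc6a6 only from 13.2 to 11. A peak fold of at least 10 was reached by 37 of 344 member peaks in wild-type (10.8%, against 10.6% of all peaks) and by 9 of 300 in the KO (3.00%, against 2.64%). Slc25a3, the phosphate carrier that rose above, had a peak in the KO (fold 5.50) and none in wild-type. Slc25a1, which also rose above, had a peak in both genotypes, and its fold was not higher in the KO (2.59 in wild-type and 2.45 in the KO). The region table and the MeTPeak lists rest on the same libraries and are not independent of each other.

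The 5 peak lists made with the other antibody gave a peak on listed exons to 26 members in E14 at 100K nuclei (13%, against 19% of all genes), 12 at 25K (6.00%, against 9.97%), 19 at 5K (9.50%, against 14.9%), 48 in EPSC (24.0%, against 27.4%) and 73 in MEF (36.5%, against 39.8%). The lists differ in length, from 3923 to 38205 peaks. When each was reduced to its 3923 strongest peaks, the member counts were 14, 12, 17, 20 and 13, without the wide lead of MEF. Counts over all genes at that length are not given here, so whether this is particular to members was not tested. All 26 members with a peak in E14 at 100K nuclei also had one in the wild-type MeTPeak list, as did 92.0% of the 2133 genes with such a peak. With fewer nuclei, 10 of the 26 had a peak at 25K (38.5%, against 45.1% of the 2133) and 15 at 5K (57.7%, against 48.9%).

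Peaks in E14 at 100K nuclei, EPSC and MEF alike were found for 20 members (10% of 200, against 13.7% of all genes), and 6 (3.00%, against 4.98%) had one in all 5 lists: Slc4a7, Slc7a1, Slc12a7, Slc24a5, Slc25a36 and Slc35e1. Slc4a7, a sodium-bicarbonate cotransporter with no region in the genotype table, had 3, 2, 1, 5 and 9 peaks in these lists (in the order above), with highest folds of 8.05, 9.90, 7.05, 9.89 and 10.7. Its folds were alike in stem cells and fibroblasts. Slc12a7 had 1, 1, 1, 6 and 23 peaks, and its highest fold was 3.71 in E14 at 100K nuclei, 4.90 in EPSC and 24.7 in MEF. That MEF peak, at mm9 chr13:73947280-73947622, covers the region chr13:73947375-73947524 of the genotype table, near the 3′ end. Slc12a2 had 3 peaks in E14 at 100K nuclei, 14 in EPSC and 27 in MEF, with highest folds of 6.90, 13.5 and 11.5. Slc39a10 had 5, 9 and 8, with folds of 8.63, 10.6 and 20.5; its strongest peaks in these lists share the start of mm9 chr1:46884122-46884358 to within a few bases.

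Slc2a3 differed between the stem cell and fibroblast lists, though at low folds (at most 2.22 in E14 at 100K nuclei and 2.69 in EPSC). It had 3, 1 and 1 peaks in E14 at 100K, 25K and 5K nuclei, 7 in EPSC and none in MEF, while Slc2a1 had 0, 2 and 8 in E14 at 100K nuclei, EPSC and MEF. Only Slc2a3, Slc25a28 and Slc38a4 had a peak in both E14 at 100K nuclei and EPSC and none in MEF (3 of 200, against 2.75% of all genes). In MEF alone of these 3 lists a peak was found for 34 members (17% of 200 and 17% of all genes), with the highest folds for Slc9a5 (14.0), Slc30a7 (11.8), Slc35b4 (9.97) and Slc30a4 (9.27). Slc5a3 had the longest member peak, 6076 bp in MEF with a fold of 14.9. A listed peak depends on how much of an RNA the cells hold as well as on its m6A, and RNA levels of these 3 cell types were not compared here.

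**Figure D5:**
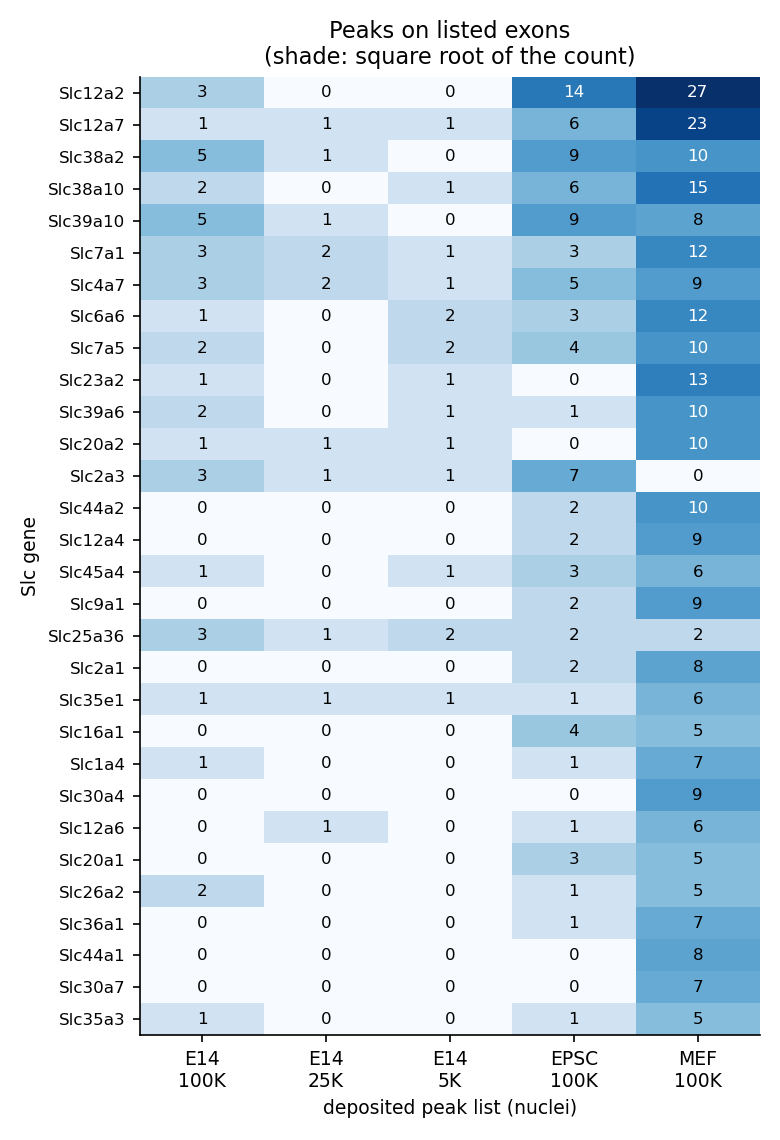
Number of deposited peaks that overlap listed exons (printed in each cell, shaded by its square root) for the 30 Slc genes with the most peaks, in rows, and the 5 mouse peak lists, in columns. Slc12a2 and Slc12a7 have 27 and 23 peaks in MEF, and Slc2a3 has 7 in EPSC and 0 in MEF.

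By the RefSeq gene table, 84 of the 200 genes overlap another gene, and reads or peaks there cannot be assigned to one of the pair, since strand use was not stated. Examples are Slc2a3, Slc2a1, Slc6a6 and Slc30a4, which overlap predicted or noncoding genes. Of the carriers described above, Slc5a3 (Mrps6), Slc24a5 (Myef2), Slc16a3 (Csnk1d), Slc35a4 (Apbb3), Slc7a3 (Snx12) and Slc9a5 (Plekhg4) overlap coding genes. ADP/ATP carriers have near-identical copies and their values are uncertain for the same reason. Of 20 carriers chosen for description by function, 19 had values. Slc7a11 had no region or peak listed under its own symbol in the genotype comparison, so it could not be described.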

How the data were processed

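Bulk m6A-CT and input libraries of mouse cells were analysed from deposited tables. Per the submitters' processing notes, Trim Galore, STAR 2.7.2 and MACS2 were used, with mm9 for mouse; MeTPeak and exomePeak2 are named in the labels, with settings not given in the sources used here, nor whether replicates were pooled. The deposited exomePeak2 table gives RPM, from which whole reads were recovered (99.997% of values within 0.01 reads). The authors' deposited log2 fold change carries their p-value and FDR. The deposited MeTPeak columns are a fold (ratio), log10 p and log10 FDR, a score that is a p-value, and other columns of block positions. The deposited narrowPeak columns are a score, a fold (ratio), −log10 p, −log10 q and other columns such as the summit. The deposited lists hold peaks with −log10 q of at least 10.

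A gene was represented by its region with the most reads. A ratio of 2 over at least 50 reads counted as enriched, and a log2 difference of 1 over at least 20 input reads as an input change. Ratio intervals are Clopper-Pearson (95%). Peaks were assigned with bedtools 2.31.1 by an overlap of 1 bp with an exon block listed for the gene. A Wald test on the reads, tested on simulated data, was an alternative. The table gives 1 value per group, so edgeR on single libraries, planned where such counts exist, was not run. Members, classes (by numbered family) and lists were chosen with earlier results of these data known. Genes named are those with the most reads per class, the extremes of change, ratio, input and peaks, and 20 carriers chosen by function; Slc45a3, Slc25a39, Slc27a1 and Slc35g1 were named after their values were seen. The gene left out is not reported here.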

Additional observations from a re-analysis of the deposited data

How the results depend on the processing

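Of 71 values recomputed under other settings for 16 results, 46 were within 1.5 times the count or, for the median, within its interval. Without the reads of Lars2 and Rn45s, 48 members were enriched in wild-type, 11 were in the KO, and 8 had lower and 25 higher input. Calls in the authors' deposited table numbered 65 lower and 3 higher from 1000 reads (a minimum added after seeing the data), 4 higher from 200 reads and 15 with no minimum, and 4 higher at FDR under 0.01; the Wald test on reads called 99 lower and 7 higher. The median RPM-scale change was -1.13 when the region with the highest wild-type ratio stood for a gene, which selects for high wild-type values. Lower input was seen in 11 members and higher in 2 from 100 input reads, and in 35 and 27 at a log2 difference of 0.58. A MeTPeak fold of at least 5 left 36 members with a KO peak, and the fold was lower in 29 of 32 with peaks in both genotypes. At −log10 q of at least 20, 14, 4, 7 and 28 members had a peak in E14 at 100K, 25K and 5K nuclei and EPSC; at equal list length the counts were 14 in E14 at 100K, 20 in EPSC and 13 in MEF. With genes of at least 3 regions, the wild-type ratio was higher downstream in 76 of 83. Among 68 named genes, 11 of 272 values turned sign against the authors' deposited table: Slc25a5 (0.15 on the RPM scale, 0.32 without Lars2 and Rn45s, 0.070 with regions summed, 0.15 with 0.5 reads added), Slc29a1 (0.0029, 0.17 and 0.0032 with 0.5 reads added) and, without Lars2 and Rn45s, Slc20a1 (0.063), Slc39a1 (0.15), Slc3a2 (0.057) and Slc6a6 (0.10). The causes were not tested. No paired analysis was possible because the table gives 1 value per genotype and library kind, and leaving out a replicate was not run for the same reason. Reads limit the members under 200 reads most.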

Other observations

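Other membrane transport families, counted in the same way, gave these values. Over all genes, 89.8% were lower and 10.1% higher in the authors' deposited table. Of all genes 74.3% were enriched in wild-type, at median wild-type and Mettl3 KO ratios of 3.52 and 2.12. Among ABC transporters, which pump substrates with ATP, 20 of 23 genes with at least 50 reads were lower in Mettl3 KO and 3 higher in the authors' deposited table, at median wild-type and Mettl3 KO ratios of 4.35 and 2.44. P-type ATPases, the ion and lipid pumps, were lower in 23 of 24 in the authors' deposited table and had higher ratios, with medians of 6.27 and 3.74. Potassium channel genes were lower in 18 of 18 in the authors' deposited table, at medians of 6.58 and 2.36. Subunits of the V-type ATPase, which acidifies lysosomes, had low ratios like those of many mitochondrial carriers, with medians of 1.72 and 1.26. Of these 13 genes, 4 were enriched in wild-type, and 10 were lower and 3 higher by the authors' deposited table. No difference between families was tested.

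Outside Lars2 and Rn45s, the share of reads in member regions was 1.24% (wild-type) and 0.76% (KO) for m6A-CT, and 0.97% and 0.89% for input.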
